A study of Mus musculus with 90 samples.

Results

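The liver sets how fast glucose is broken down to pyruvate, and whether that pyruvate enters the mitochondrion as acetyl-CoA, through a small number of regulated enzymes. 9 of the 27654 measured genes are described here: Gckr, Pklr, Pfkl, Pfkfb1, Pfkfb2, Pfkfb3, Pdk1, Pdk2 and Pdk4. Gckr encodes a nuclear inhibitor of the first step of hepatic glucose phosphorylation, Pfkl the liver phosphofructokinase of the committed step, and Pklr the liver pyruvate kinase of the last step. Pfkfb1, Pfkfb2 and Pfkfb3 encode bifunctional enzymes that make and remove fructose-2,6-bisphosphate, the strongest known activator of phosphofructokinase. Pdk1, Pdk2 and Pdk4 encode kinases that phosphorylate the pyruvate dehydrogenase complex and so switch it off. They were chosen by name as switches of glycolysis and of pyruvate entry.

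The 90 bulk RNA-seq libraries come from livers of male C57BL/6J mice, which entered the 8-week diet protocol or the corticosterone experiment at 12 weeks of age. Mice on caloric restriction (CR) received 40% less food, given at zeitgeber time 12 (ZT12), when the lights go off, and control mice ate freely until a last week of feeding restricted to the night. In the time series, WT mice carry floxed alleles of the glucocorticoid receptor gene, and GRLKO mice carry the same alleles with the Alb-Cre driver, which acts in hepatocytes, so that other liver cells can keep the receptor. A diet comparison of WT livers at ZT12 holds 3 CR and 3 control libraries (the controls have AL in their titles and night-restricted feeding as their labelled treatment, and are taken here by the latter), and a time series of WT and GRLKO livers at ZT0, ZT4, ZT8, ZT12, ZT16 and ZT20 holds 36 libraries on CR (3 per group) and 42 on control diet (3 or 4 per group). In the corticosterone experiment, with night-restricted feeding during the 7 days of treatment, 3 mice labelled WT and not stated to carry floxed alleles received the hormone at 5 mg/kg by intraperitoneal injection each day (CORT), at ZT11 by the methods and ZT12 by a figure legend, and 3 received the vehicle (control), and the livers were taken at ZT12. Each replicate is a separately labelled sample, and every p-value treats the replicates as separate mice. Estimated counts per library ran from 10057544 to 17089004 in the control-diet series, 13739631 to 16077943 in the corticosterone experiment, 14235473 to 20788575 in the CR series and 36442195 to 39492146 in the diet comparison.

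The glucocorticoid receptor transcript, Nr3c1, was low in GRLKO livers throughout. On CR it ran from 70.5 to 113 CPM (median 94.0) in 18 WT livers and from 21.6 to 32.2 CPM (median 25.0) in 18 GRLKO livers, 26.6% of the WT median. On control diet it ran from 72.8 to 117 CPM (median 86.9) in WT and from 16.2 to 28.8 CPM (median 21.7) in GRLKO, 25.0% of the WT median. No GRLKO library reached the lowest WT library on either diet, and the log2 fold change lay between -2.06 and -1.70 over the 12 genotype comparisons. The tissue label held up against hepatocyte markers, all 6 of which were above 0 in every library, with a summed level of 68097 to 173989 CPM and Alb as the top gene. A few libraries stood apart by markers of other tissues. WT on CR at ZT12 replicate 3 carried 416 CPM of pancreas markers (4 of 4 above 0, Pnlip highest at 137), WT on control diet at ZT16 replicate 2 carried 187 CPM of them (Pnlip 59.7), and the median over all libraries was 0.14. GRLKO on CR at ZT12 replicate 1 carried 114 CPM of muscle markers (4 of 4, Acta1 80.1). On CR at ZT0, GRLKO replicate 2 carried 2788 CPM of erythrocyte markers (3 of 3, Hbb-bs 2084), against a median of 385 over all libraries. The highest sum of adipocyte markers was 49.0 CPM (Cfd 49.0, GRLKO on control diet at ZT20), against a median of 0.11. This sum differed by genotype on control diet. Its mean in GRLKO and WT livers was 28.2 and 0.33 CPM at ZT0, 12.0 and 0.05 at ZT4 and 11.9 and 0.09 at ZT12. At ZT16 it was 3.65 and 0.39 CPM, and at ZT20 19.5 and 0.33 CPM. Of 4 adipocyte markers, 1 was tested and called higher in GRLKO at ZT0, ZT4, ZT8 and ZT12. Plin1 was at 0 in all 90 libraries and Lep in 89. In whole profile, 4 libraries lay far from both others of their group, with a chi-square per degree of freedom over 50 to each, a limit set after seeing the data (median of all pairs 22.5). These were WT on control diet at ZT0 replicate 3 (111 and 73.4), GRLKO on control diet at ZT20 replicate 1 (77.4 and 68.2), WT on CR at ZT8 replicate 2 (65.6 and 63.3) and CORT replicate 2 (50.4 and 52.8). The leave-outs cover each of them. Tests that use the libraries with pancreas or muscle markers were also run without them, an alternative added after seeing the data.

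In WT livers at ZT12, caloric restriction went with far more Pdk4, the largest change of any member, and Pfkfb2, Pdk1 and Pfkl also rose while Pklr, Pfkfb3 and Pdk2 fell. 7 of the 9 members were called (47.1% of all tested genes were called in this comparison), so a call was common among all genes here. The median log2 fold change was 0.16 for the members and 0.00 for all genes. Pdk4 stood at 2.35, 2.82 and 2.85 CPM in control livers and 45.0, 62.8 and 262 CPM on CR. Every CR liver lay above every control liver, with the highest value in CR replicate 3. The log2 fold change was 5.53 ± 0.77 (46.1-fold, edgeR quasi-likelihood with Benjamini-Hochberg, adjusted p = 0.00149, 3 of 3 CR livers above all controls), and 4.34 without CR replicate 3. Pfkfb2 measured 11.4, 9.64 and 12.6 CPM in control and 16.5, 22.0 and 20.4 CPM in CR livers. All 3 CR values lay above the control values, by a log2 fold change of 0.81 ± 0.14 (edgeR, adjusted p = 0.00345). Pfkfb3, its close relative, went the other way: 31.2, 29.7 and 47.8 CPM in control and 18.8, 21.1 and 21.9 CPM in CR livers. The ranges did not overlap, all 3 CR livers were lower, and the log2 fold change was -0.82 ± 0.18 (edgeR, adjusted p = 0.00960).

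Among the other members in the same comparison, Pdk1 rose from 105, 121 and 97.0 CPM to 204, 158 and 146 CPM, with all 3 CR livers above the controls (log2 fold change 0.65 ± 0.14, edgeR, adjusted p = 0.00925). Pfkl rose from 37.3, 34.4 and 33.0 CPM to 47.0, 52.5 and 44.8 CPM, again with no overlap and 3 of 3 higher (log2 fold change 0.46 ± 0.09, edgeR, adjusted p = 0.00458). Pklr held 407, 506 and 488 CPM in control and 402, 265 and 198 CPM in CR livers. CR replicate 1 lay just under the lowest control and the other 2 lay well below, for a log2 fold change of -0.70 ± 0.24 (edgeR, adjusted p = 0.0467, 3 of 3 lower). Pdk2 went from 133, 129 and 119 CPM to 111, 105 and 95.9 CPM, 3 of 3 lower (log2 fold change -0.29 ± 0.08, edgeR, adjusted p = 0.0224). Pfkfb1 overlapped between the diets at 28.5, 41.6 and 36.7 CPM and 56.1, 39.2 and 24.6 CPM and was not called by edgeR (log2 fold change 0.16 ± 0.28, adjusted p = 0.663, 2 of 3 CR livers above the control median). The call of Pklr ended when CR replicate 2 or 3 or control replicate 1, 2 or 3 was left out (log2 fold change -0.79 to -0.48, edgeR, adjusted p 0.0700 to 0.134). It also ended with a replicate block. The call of Pdk2 ended without CR replicate 2 or 3 or control replicate 1 or 2 (log2 fold change -0.30 to -0.23, edgeR, adjusted p 0.0646 to 0.0800).

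Genes of the same pathways moved in mixed directions with diet. Of 18 tested genes of a glycolysis list, 9 rose and 4 fell (72.2%), with a median log2 fold change of 0.32 against 0.00 for all genes. The largest were Tpi1 (-1.18), Pfkp (1.16), Hk3 (-0.75) and Gpi1 (0.54), and how reads of Tpi1 divide among its near-identical copies was not tested. Of 11 genes around pyruvate dehydrogenase, 4 rose and 1 fell, a share of 45.5% beside the 47.1% of all genes: Pdp1, a phosphatase that opposes the kinases, rose by 2.08, the mitochondrial pyruvate carrier genes Mpc1 and Mpc2 by 0.67 and 0.56, and Pdha1 by 0.32, while Pdhx fell by 0.60. Of 7 regulators, Ppargc1a (1.94), Foxo1 (0.71) and Mlxipl (0.62) rose and Srebf1 (-0.50) fell. Other cell markers moved too: the summed hepatocyte markers averaged 158118 CPM on CR and 92877 CPM on control diet (2 of 6 called, both higher), the endothelial sum 182 and 128 CPM (3 of 5 higher), the stellate sum 263 and 185 CPM (2 of 5 higher and 1 lower) and the Kupffer sum 118 and 120 CPM (0 of 7 called), and their part in the result was not tested. In bulk tissue, fewer cells of a type and less RNA per cell cannot be told apart. The same contrast taken from the time-series libraries, where diet and library batch cannot be told apart, called 4 members and gave Pdk4 4.29, Pfkfb2 1.13, Pdk1 0.83 and Pklr -0.52, but Pfkfb3 -0.50 (edgeR, adjusted p = 0.300, 3 CR and 4 control livers), Pdk2 -0.00 and Pfkl -0.18, the last with its direction turned. Without the pancreas-marked library this time-series contrast called 3 members, with Pklr at -0.47 (edgeR, adjusted p = 0.140) and Pfkl at -0.20.

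At the end of the daily fast on caloric restriction, all 3 Pfkfb genes were far lower in GRLKO than in WT livers. At ZT12 on CR, 3 of 9 members were called, all lower in GRLKO (15.3% of all tested genes were called in this comparison). The median log2 fold change was -0.42 for the members and 0.00 for all genes. Pfkfb3 measured 25.5, 44.3 and 29.2 CPM in WT and 4.50, 1.64 and 4.19 CPM in GRLKO livers. The groups lay far apart, and the log2 fold change was -3.27 ± 0.36 (9.66-fold lower, edgeR, adjusted p = 0.00193, 3 of 3 GRLKO livers below all WT). Pfkfb2 measured 39.6, 27.9 and 30.8 CPM in WT and 11.3, 7.12 and 11.5 CPM in GRLKO livers. Again no GRLKO value reached a WT value, with a log2 fold change of -1.73 ± 0.21 (3.31-fold lower, edgeR, adjusted p = 0.00284, 3 of 3). Pfkfb1 measured 43.7, 60.4 and 46.0 CPM in WT and 14.4, 16.4 and 15.6 CPM in GRLKO livers. All 3 GRLKO livers were lower, by a log2 fold change of -1.70 ± 0.14 (3.25-fold, edgeR, adjusted p = 0.000720).

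These calls held without the libraries with pancreas or muscle markers, at -3.61 for Pfkfb3, -1.87 for Pfkfb2 and -1.72 for Pfkfb1, while the count of all called genes went from 1795 to 538 on 2 livers per group. Pdk4 overlapped between genotypes at the same time, with 46.2, 46.2 and 39.9 CPM in WT and 36.3, 21.7 and 49.4 CPM in GRLKO livers, and edgeR did not call it (log2 fold change -0.31 ± 0.26, adjusted p = 0.471, 2 of 3 GRLKO livers below all WT). Pklr ran from 256 to 339 CPM in WT and from 188 to 246 CPM in GRLKO livers, and was called by DESeq2 but not by edgeR (log2 fold change -0.42 ± 0.15, adjusted p = 0.105, 3 of 3 lower). Of 17 tested glycolysis genes, 3 were called (17.6%, beside 15.3% of all genes), all lower. Pgk1 (-0.42) and Pgam1 (-0.36) were among them, and the median over the list was -0.05. Of 10 genes around pyruvate dehydrogenase, Pdp2 (-0.57), Pdha1 (-0.42) and Pdhb (-0.34) were lower (30% called), with a list median of -0.01. Of 7 regulators, Srebf1 (1.60) was higher and Ppargc1a (-0.97), Foxo1 (-0.89) and Nr3c1 itself were lower. The hepatocyte marker sum was 167880, 169408 and 173989 CPM in WT and 127381, 134774 and 117702 CPM in GRLKO livers (6 of 6 lower), and the Kupffer sum, with Clec4f as top gene, was 42.9, 69.9 and 51.2 CPM against 115, 97.3 and 125 CPM (5 of 7 higher), and their part in the result was not tested.

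At ZT8 and ZT16 on CR, Pfkfb2 was also lower in GRLKO livers, and Pfkfb3 at ZT8. At ZT8, 2 of 9 members were called (2.55% of all tested genes). Pfkfb3 measured 18.1, 22.6 and 24.7 CPM in WT and 6.61, 5.47 and 8.98 CPM in GRLKO livers, without overlap (log2 fold change -1.63 ± 0.20, edgeR, adjusted p = 0.0101, 3 of 3 lower), and the call ended without GRLKO replicate 1 (-1.60, adjusted p = 0.0659). Pfkfb2 measured 15.4, 18.4 and 15.8 CPM in WT and 10.2, 10.5 and 11.4 CPM in GRLKO livers, also without overlap (log2 fold change -0.63 ± 0.11, edgeR, adjusted p = 0.0282, 3 of 3 lower). Without WT replicate 2, which lay far from its group, both stood at -1.60 and -0.54 (edgeR, adjusted p = 0.0230 and 0.0496, 3 of 3 lower). The call of Pfkfb2 ended without GRLKO replicate 1, 2 or 3 or WT replicate 3 (log2 fold change -0.68 to -0.60, edgeR, adjusted p 0.0705 to 0.134). With a replicate block, 1 of the 2 edgeR calls at ZT8 ended. DESeq2 called Pfkfb1 at ZT8 as well (-0.44, adjusted p = 0.0462), where edgeR gave -0.43 ± 0.11 (adjusted p = 0.0860, 3 of 3 lower). At ZT16, 1 of 9 members was called by edgeR (4.54% of all tested genes): Pfkfb2, with 14.0, 14.3 and 15.6 CPM in WT and 8.20, 6.37 and 7.64 CPM in GRLKO livers. The GRLKO values were all lower (log2 fold change -0.98 ± 0.13, edgeR, adjusted p = 0.00817, 3 of 3). Pklr at ZT16 measured 268, 384 and 301 CPM in WT and 179.6, 232 and 149 CPM in GRLKO livers, without overlap. It was not called by edgeR (log2 fold change -0.77 ± 0.19, adjusted p = 0.0701, 3 of 3 lower), but was by DESeq2, by a fit over all CR libraries and with a replicate block, and Pdk2 (-0.34 ± 0.09) was called by DESeq2 and by that fit.

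The kinase gene Pdk4 took the opposite direction late in the night. At ZT20 on CR, 1 of 9 members was called (1.47% of all tested genes), and Pdk4 measured 31.9, 46.1 and 51.6 CPM in WT and 89.3, 85.4 and 81.9 CPM in GRLKO livers. All 3 GRLKO livers were higher (log2 fold change 1.01 ± 0.17, edgeR, adjusted p = 0.0391), and the call ended when any of the 6 libraries was left out, that is WT replicate 1, 2 or 3 or GRLKO replicate 1, 2 or 3 (log2 fold change 0.84 to 1.16, edgeR, adjusted p 0.0689 to 0.125). The call of Pdk4 also ended with a replicate block. Pklr at ZT20 ran from 210.1 to 284 CPM in WT and from 82.4 to 159 CPM in GRLKO livers, without a call by edgeR (log2 fold change -0.96 ± 0.24, adjusted p = 0.103, 3 of 3 lower), and DESeq2 and a fit over all CR libraries called it. Both also called Pfkl (-0.43 and -0.44) and Pfkfb1 (-0.51 and -0.52) at ZT20, and edgeR called Pfkfb1 without GRLKO replicate 3 (-0.69, adjusted p = 0.0442). Over all 6 times on control diet, Pklr had a median of 313 CPM in 22 WT and 178 CPM in 20 GRLKO livers, 56.8% of the WT median. Over the same times on CR, its median was 244 CPM in 18 WT livers and 154 CPM in 18 GRLKO livers, 63.1% of the WT median. At ZT0, 0 of 9 members were called by edgeR (0.502% of all tested genes), with 3 at unadjusted p < 0.05 (Pklr, Pfkfb1 and Pfkfb2), 1 called by DESeq2 (Pklr) and 0 by a fit over all CR libraries, and edgeR also called 0 without the erythrocyte-marked library. At ZT4, 0 of 9 were called by edgeR (0.690% of all tested genes), with 2 at unadjusted p < 0.05 (Pfkfb3 and Pdk1), and Pfkfb3 called both by DESeq2 and by that fit. Single genes of the lists were called at other times on CR: Aldoa at ZT4 (-0.52), the glucose transporter gene Slc2a2 at ZT16 (-0.41) and Mlxipl at ZT20 (-0.59), all lower in GRLKO.

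**Figure D1:**
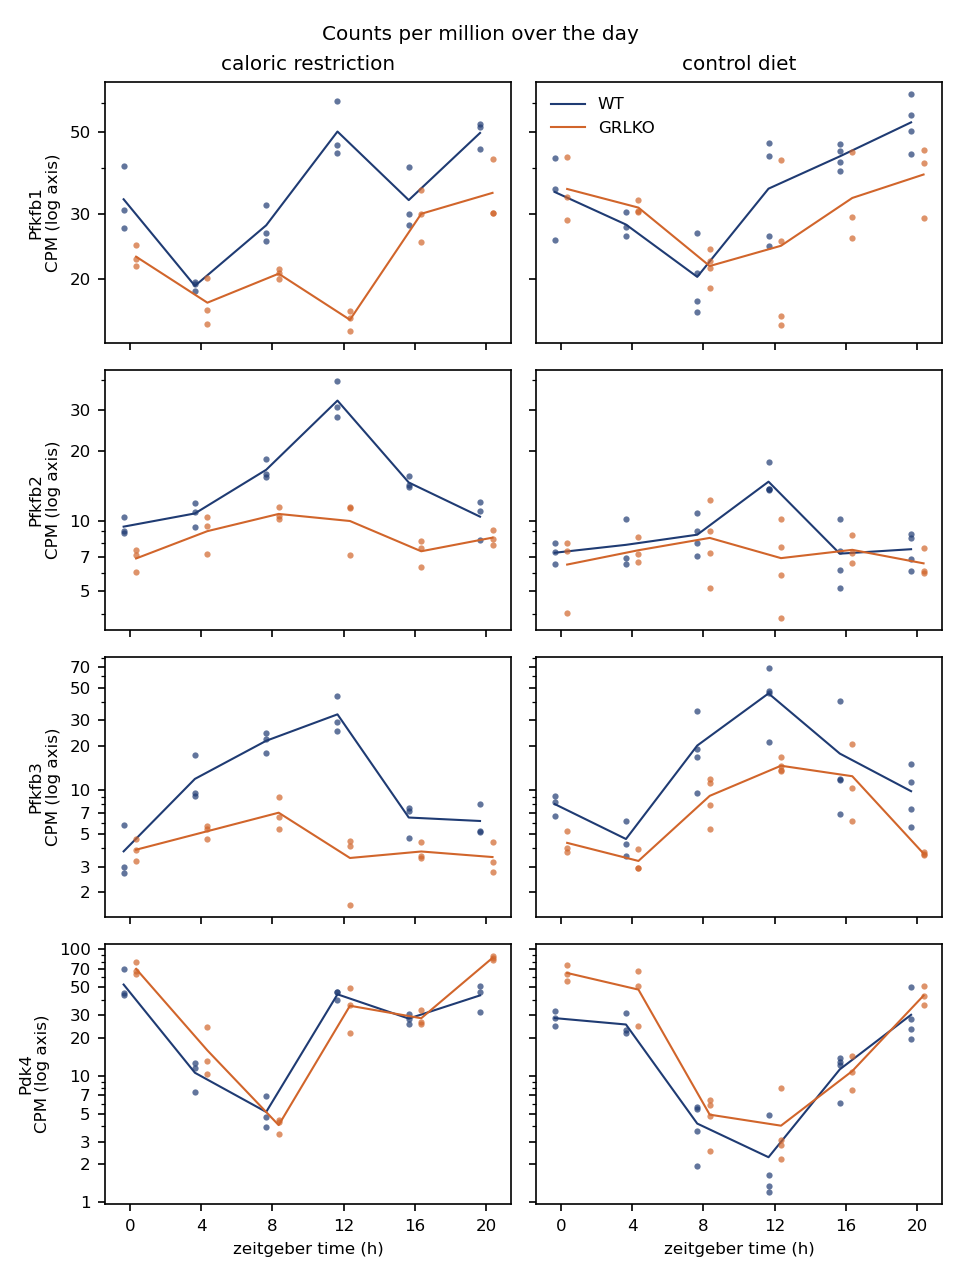
Level of Pfkfb1, Pfkfb2, Pfkfb3 and Pdk4 over the day in WT and GRLKO livers on caloric restriction and control diet. Each point is 1 library, lines join group means and the vertical axis is logarithmic.

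On control diet Pfkfb3 was again lower in GRLKO livers at ZT12, and Pdk4 was higher at ZT0. At ZT12, 1 of 8 tested members was called (2.08% of all tested genes). Pfkfb3 measured 21.3, 46.4, 47.9 and 68.0 CPM in WT and 13.7, 16.9, 13.5 and 14.7 CPM in GRLKO livers. All 4 GRLKO livers lay below the lowest WT liver (log2 fold change -1.65 ± 0.29, edgeR, adjusted p = 0.0234), and the call ended without GRLKO replicate 1, 2, 3 or 4 or WT replicate 2 or 3 (log2 fold change -1.72 to -1.61, edgeR, adjusted p 0.0564 to 0.0792). The call of Pfkfb3 also ended with a replicate block. Pfkfb2 measured 13.5, 17.9, 13.7 and 13.8 CPM in WT and 7.75, 5.87, 3.83 and 10.2 CPM in GRLKO livers. No GRLKO value reached a WT value, yet edgeR did not call it (log2 fold change -1.09 ± 0.26, adjusted p = 0.0750, 4 of 4 lower), while DESeq2, a fit over all control-diet libraries and edgeR without GRLKO replicate 4 did (-1.34 for the last). Pfkfb1 overlapped at 43.1, 26.1, 24.6 and 46.5 CPM in WT and 15.9, 15.0, 42.0 and 25.4 CPM in GRLKO livers and was not called. Foxo1 (-0.59) was the only gene of the lists called besides Nr3c1.

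At ZT0 on control diet, 1 of 8 tested members was called (0.536% of all tested genes): Pdk4, with 32.5, 28.5 and 24.7 CPM in WT and 56.4, 63.9 and 74.7 CPM in GRLKO livers. The groups did not overlap (log2 fold change 1.19 ± 0.14, edgeR, adjusted p = 0.0337, 3 of 3 higher), and the call ended without GRLKO replicate 1, 2 or 3 or WT replicate 1 or 2 (log2 fold change 1.07 to 1.29, edgeR, adjusted p 0.0851 to 0.128). It also ended in a fit over all control-diet libraries (1.20, adjusted p = 0.0748) and with a replicate block (1.19, adjusted p = 0.119), and stood without WT replicate 3 (1.10, adjusted p = 0.0436). DESeq2 called Pdk2 as well (0.43). The remaining times gave 0 calls by edgeR. At ZT4 (0 of 9; 0.195% of all tested genes), Pklr and Pdk4 had an unadjusted p < 0.05 and DESeq2 called 0. At ZT8 (0 of 8; 1.43%), Pfkfb3 and Pdk1 did, and Pdk1 was called by DESeq2 and, without WT replicate 4, by edgeR (0.48). At ZT16 (0 of 9; 1.98%), Pklr, Pfkl and Pdk2 did and DESeq2 called 1, Pdk2, with 0 calls also without the pancreas-marked library, and Pfkfb1 was called by edgeR without GRLKO replicate 1 (-0.64). At ZT20 (0 of 9; 0.420%), Gckr, Pklr, Pfkfb1 and Pfkfb3 did and DESeq2 called 3, Gckr, Pklr and Pfkfb3. The fit over all control-diet libraries called 0 members at each of these 4 times. At ZT20 edgeR also called 0 without GRLKO replicate 1. Pklr at ZT20 measured 316, 276, 318 and 236 CPM in WT and 167, 126 and 173 CPM in GRLKO livers, and all 3 GRLKO values were lower (log2 fold change -0.88 ± 0.15, edgeR, adjusted p = 0.0621, not called).

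A call on one diet and none on the other does not show that the genotype effect differs between diets, so the interaction of genotype and diet at ZT12 was tested. It called 0 of 9 members (1.01% of all tested genes), with Pfkfb1 and Pfkfb3 at unadjusted p < 0.05 and 1 member, Pfkfb3, called by DESeq2 (adjusted p = 0.0411, the same direction as the edgeR value). The edgeR estimates were -1.61 ± 0.51 for Pfkfb3 (adjusted p = 0.164, 14 livers), -1.16 ± 0.46 for Pfkfb1 (adjusted p = 0.272) and -0.62 ± 0.37 for Pfkfb2 (adjusted p = 0.492). Negative values mean a larger drop in GRLKO on CR than on control diet. The pyruvate dehydrogenase phosphatase gene Pdp2 was the only gene of the lists called (-0.78, edgeR, adjusted p = 0.0475, 14 livers).

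After daily corticosterone, Pfkfb3 and Pfkfb2 were higher and Pdk4 was lower in WT livers at ZT12. 3 of 9 members were called (8.11% of all tested genes), and the median log2 fold change of the members was -0.09. Pfkfb3 measured 17.7, 7.02 and 4.99 CPM in control and 127, 73.2 and 134 CPM in CORT livers. The lowest CORT liver lay far above the highest control, with a log2 fold change of 3.50 ± 0.47 (11.3-fold, edgeR, adjusted p = 0.00894, 3 of 3 higher), and the call ended without control replicate 2 (3.30, adjusted p = 0.0551). Over all leave-outs the value ran from 3.18 to 4.20, the highest without control replicate 1. Pfkfb2 measured 8.56, 8.64 and 6.77 CPM in control and 12.6, 21.0 and 17.2 CPM in CORT livers. All 3 CORT livers were higher (log2 fold change 1.09 ± 0.21, edgeR, adjusted p = 0.0250), and the call ended without CORT replicate 3 or control replicate 1, 2 or 3 (log2 fold change 0.98 to 1.15, edgeR, adjusted p 0.0719 to 0.0864). Pdk4 measured 9.42, 10.6 and 10.2 CPM in control and 3.41, 5.34 and 2.87 CPM in CORT livers. It fell in 3 of 3 (log2 fold change -1.37 ± 0.24, 2.59-fold, edgeR, adjusted p = 0.0194), and the call ended without CORT replicate 1 or 3 or control replicate 1, 2 or 3 (log2 fold change -1.42 to -1.19, edgeR, adjusted p 0.0513 to 0.0835).

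Without CORT replicate 2, which lay far from its group, Pfkfb3 (3.72), Pfkfb2 (0.89) and Pdk4 (-1.69) were each called by edgeR, and 4 members in all. Pfkfb1 measured 48.1, 37.8 and 34.3 CPM in control and 22.6, 33.9 and 24.0 CPM in CORT livers, 3 of 3 lower without a call (log2 fold change -0.58 ± 0.19, edgeR, adjusted p = 0.113), and with a call without CORT replicate 2 (-0.79, adjusted p = 0.0323). Pklr spread widely in both groups, at 475, 448 and 258 CPM in control and 255, 98.1 and 457 CPM in CORT livers. Ldha rose (0.46) as the only 1 of 18 glycolysis genes, Foxo1 rose (1.29) as 1 of 7 regulators, and 0 of 9 genes around pyruvate dehydrogenase were called. Caloric restriction and corticosterone thus moved Pfkfb2 the same way against their own controls, and Pfkfb3 and Pdk4 opposite ways. The difference was not tested, and time-series libraries did not call the fall of Pfkfb3 with diet. Controls here held less Pfkfb3 and more Pdk4 than all other control-fed WT livers at ZT12, without a common scaling. Those of the time series averaged 45.9 CPM of Pfkfb3 and 2.27 CPM of Pdk4. In Pdk4, CORT livers lay nearer to those than to their own controls, and the part of this was not tested. Nr3c1 itself was not called in either experiment (-0.08 for diet and -0.06 for corticosterone). Summed hepatocyte markers averaged 100297 CPM in CORT and 97952 CPM in control livers (1 of 6 higher), and the endothelial sum 79.8 and 103 CPM (1 lower), and their part in the result was not tested.

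From ZT12 to ZT16, the 4 h after food is given, Pfkfb3 and Pfkfb2 of WT livers on CR dropped steeply. 6 of 9 members were called, all lower at ZT16 (40.0% of all tested genes), with a median log2 fold change of -0.62 against 0.01 for all genes. Pfkfb3 went from 25.5, 44.3 and 29.2 CPM to 4.72, 7.24 and 7.57 CPM, 3 of 3 lower (log2 fold change -2.33 ± 0.26, edgeR, adjusted p = 0.000754). Pfkfb2 went from 39.6, 27.9 and 30.8 CPM to 14.0, 14.3 and 15.6 CPM, 3 of 3 lower (log2 fold change -1.15 ± 0.14, edgeR, adjusted p = 0.00102). Pdk4 went from 46.2, 46.2 and 39.9 CPM to 28.3, 31.0 and 25.7 CPM, 3 of 3 lower (log2 fold change -0.62 ± 0.10, edgeR, adjusted p = 0.00364). Smaller drops were called for Pfkfb1 (-0.60 ± 0.17), Pdk1 (-0.74 ± 0.17) and Pdk2 (-0.41 ± 0.10) by edgeR, with adjusted p = 0.0299, 0.0131 and 0.0137, and 3 of 3 ZT16 livers below all ZT12 livers for each. Pfkfb1 lost its call without replicate 1 or replicate 2 of both times (-0.63 and -0.35, edgeR, adjusted p = 0.0946 and 0.160) and without the pancreas-marked library (-0.66, adjusted p = 0.0504). Pdk1 lost its call without replicate 1 or replicate 3 (-0.66 and -0.56, edgeR, adjusted p = 0.0792 and 0.118), and Pdk2 without replicate 2 or replicate 3 (-0.44 and -0.28, adjusted p = 0.0615 and 0.119).

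On control diet the same step called 2 of 9 members in opposite directions (13.4% of all tested genes). Pdk4 rose from 4.88, 1.65, 1.35 and 1.20 CPM to 12.9, 13.9, 6.07 and 12.1 CPM, 4 of 4 higher (log2 fold change 2.34 ± 0.45, edgeR, adjusted p = 0.0120), and the call ended without replicate 2 or replicate 4 (2.09 for each, adjusted p = 0.0756 and 0.0724). Without replicate 1, which holds the highest ZT12 value, the step of Pdk4 was 2.93. Pfkfb2 fell from 13.5, 17.9, 13.7 and 13.8 CPM to 6.17, 10.1, 5.17 and 7.45 CPM, 4 of 4 lower (log2 fold change -1.02 ± 0.20, edgeR, adjusted p = 0.0135), and the call ended without replicate 1, replicate 3 or replicate 4 (log2 fold change -1.07 to -0.92, edgeR, adjusted p 0.0580 to 0.0690). Without the pancreas-marked library both calls stood, at 2.21 and -1.23. Pfkfb3 went from 21.3, 46.4, 47.9 and 68.0 CPM to 6.90, 11.7, 40.8 and 11.9 CPM, where ZT16 replicate 3 overlaps the ZT12 values. It was not called with all replicates (log2 fold change -1.37 ± 0.54, edgeR, adjusted p = 0.127, 3 of 4 ZT16 livers below all ZT12 livers), and was without replicate 3 (-2.16, adjusted p = 0.0406). The step of Pdk4 differed between the diets by -3.00 ± 0.49 (edgeR, adjusted p = 0.00212, 14 livers, 2 members called of 9, 14.8% of all tested genes called). The step of Pdk1 differed by -0.80 ± 0.24 (edgeR, adjusted p = 0.0420): 184, 174 and 212 CPM went to 95.6, 143 and 99.0 CPM on CR, and 129, 103, 78.1 and 112 CPM to 126, 109.6, 98.0 and 98.1 CPM on control diet. That call ended without replicate 1, replicate 3 or replicate 4 (log2 fold change -0.87 to -0.56, edgeR, adjusted p 0.0628 to 0.218) and without the pancreas-marked libraries (-0.71, adjusted p = 0.135). Without the low-count filter, 1 of the 2 calls of a difference between diets ended. Pfkfb1 (-0.92 ± 0.30, edgeR, adjusted p = 0.0552, 14 livers) was called by DESeq2 and, without replicate 4, by edgeR (-1.13).

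Around the members, Hk2 (2.28) and Hk3 (1.54) rose in the step on CR as 2 of 6 glycolysis genes that rose, with 2 of 18 lower (44.4% called, beside 40.0% of all genes). In the same step Pdp2 (-0.87), Pdpr (-0.65), Mpc2 (-0.31) and Pdha1 (-0.30) fell as 4 of 10 genes around pyruvate dehydrogenase, the same share as among all genes. Ppargc1a (-2.66), Foxo1 (-1.67) and Ppara (-1.26) fell and Srebf1 (2.46) rose among the regulators. On control diet the step called Pkm (0.70), Aldoa (-0.46) and Slc2a2 (-0.45) among 4 of 17 glycolysis genes, Ppargc1a (-1.35) and Foxo1 (-0.57) among the regulators and 0 of 10 genes around pyruvate dehydrogenase. Kupffer markers rose in the step on CR (7 of 7; sums 42.9, 69.9 and 51.2 CPM at ZT12, 96.3, 131 and 125 CPM at ZT16), and 5 of 6 hepatocyte markers fell (mean sum 170426 and 135484 CPM). In the same step, 2 of 5 endothelial markers rose and 1 fell, and 1 of 5 stellate markers rose. On control diet 4 of 5 endothelial, 2 of 5 stellate and 2 of 3 tested cholangiocyte markers rose in the step. There 1 of 6 hepatocyte markers fell. The part of these markers in the result was not tested.

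Over the whole day, the rhythm test found 4 of 9 members in WT on CR (27.8% of all tested genes), 6 in GRLKO on CR (25.5%), 6 in WT on control diet (32.3%) and 4 in GRLKO on control diet (28.3%). Pfkfb2 in WT on CR went from a mean low at ZT0 to a mean high at ZT12, 3.47-fold apart, and was rhythmic (JTK_CYCLE, Benjamini-Hochberg adjusted p = 0.000179, 18 livers, peak ZT12). The same gene in GRLKO on CR spanned 1.55-fold (JTK_CYCLE, adjusted p = 0.290, 18 livers), and a difference between these rhythms was not tested. Pfkfb3 peaked at ZT12 in WT on CR (8.64-fold, JTK_CYCLE, adjusted p = 0.0104, 18 livers), in WT on control diet (9.89-fold, adjusted p = 0.00254, 22 livers) and in GRLKO on control diet (4.48-fold, adjusted p = 0.00438, 20 livers). In GRLKO on CR its peak fell at ZT8 and its mean low at ZT12 (2.04-fold, JTK_CYCLE, adjusted p = 0.0300, 18 livers). Pdk4 was rhythmic in all 4 groups and had the widest span of the members other than Gckr: 10.2-fold in WT and 21.0-fold in GRLKO on CR (JTK_CYCLE, adjusted p = 0.0431 and 0.000433), 13.4-fold and 16.1-fold on control diet (adjusted p = 0.0000292 and 0.000212). The fitted peak of Pdk4 was at ZT20 on CR and at ZT0 on control diet, while its highest mean lay at ZT0 in WT on CR (52.6 CPM) and at ZT20 in WT on control diet (30.4 CPM). Its mean low lay at ZT8 on CR and at ZT12 on control diet.

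Pklr was rhythmic in WT on CR (peak ZT16, JTK_CYCLE, adjusted p = 0.0276, 2.20-fold), GRLKO on CR (peak ZT12, adjusted p = 0.00303, 2.09-fold) and WT on control diet (peak ZT16, adjusted p = 0.00321, 2.98-fold). Pfkfb1 peaked at ZT20 in the 3 groups where it was called: GRLKO on CR (JTK_CYCLE, adjusted p = 0.0186, 2.21-fold), WT on control diet (adjusted p = 0.000940, 2.62-fold) and GRLKO on control diet (adjusted p = 0.0438, 1.77-fold). In WT on CR, Pfkfb1 instead had its mean high at ZT12 (2.62-fold, JTK_CYCLE, adjusted p = 0.0536, not called). Pdk1 and Pdk2 were called in GRLKO on CR (peak ZT8, JTK_CYCLE, adjusted p = 0.00303 and 0.00893; 1.96-fold and 2.05-fold). Pdk2 was also called in WT and GRLKO on control diet (JTK_CYCLE, adjusted p = 0.00751 and 0.00162; 1.56-fold and 1.62-fold), and Pfkl in WT on control diet (adjusted p = 0.00614, 1.28-fold). Without 1 replicate number, Pfkfb2 in WT on CR, Pdk4 in the other 3 groups, Pklr, Pfkfb1 and Pdk2 in WT and Pdk2 in GRLKO on control diet kept their calls. In WT on CR, Pklr, Pfkfb3 and Pdk4 lost theirs without replicate 1, replicate 2 or replicate 3 (JTK_CYCLE, adjusted p 0.0822 to 0.454), and in GRLKO on CR so did Pfkfb1, Pfkfb3 and Pdk2 without any one of the same numbers, Pdk1 without replicate 1 or replicate 3 and Pklr without replicate 3 (adjusted p 0.0550 to 0.359). On control diet WT lost Pfkl without replicate 2 and Pfkfb3 without replicate 3, and GRLKO lost Pfkfb1 without replicate 1, replicate 2, replicate 3 or replicate 4 and Pfkfb3 without replicate 1 (JTK_CYCLE, adjusted p 0.0564 to 0.286). Without the libraries with pancreas or muscle markers, 4 members were called in WT on CR, 6 in GRLKO on CR and 6 in WT on control diet. A harmonic test in edgeR called 8 members in WT on CR where JTK_CYCLE called 4, and 6762 of 12624 genes. The harmonic test also added calls of Pfkfb2 in WT (edgeR, adjusted p = 0.0114) and Pklr in GRLKO (adjusted p = 0.0356) on control diet.

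**Figure D2:**
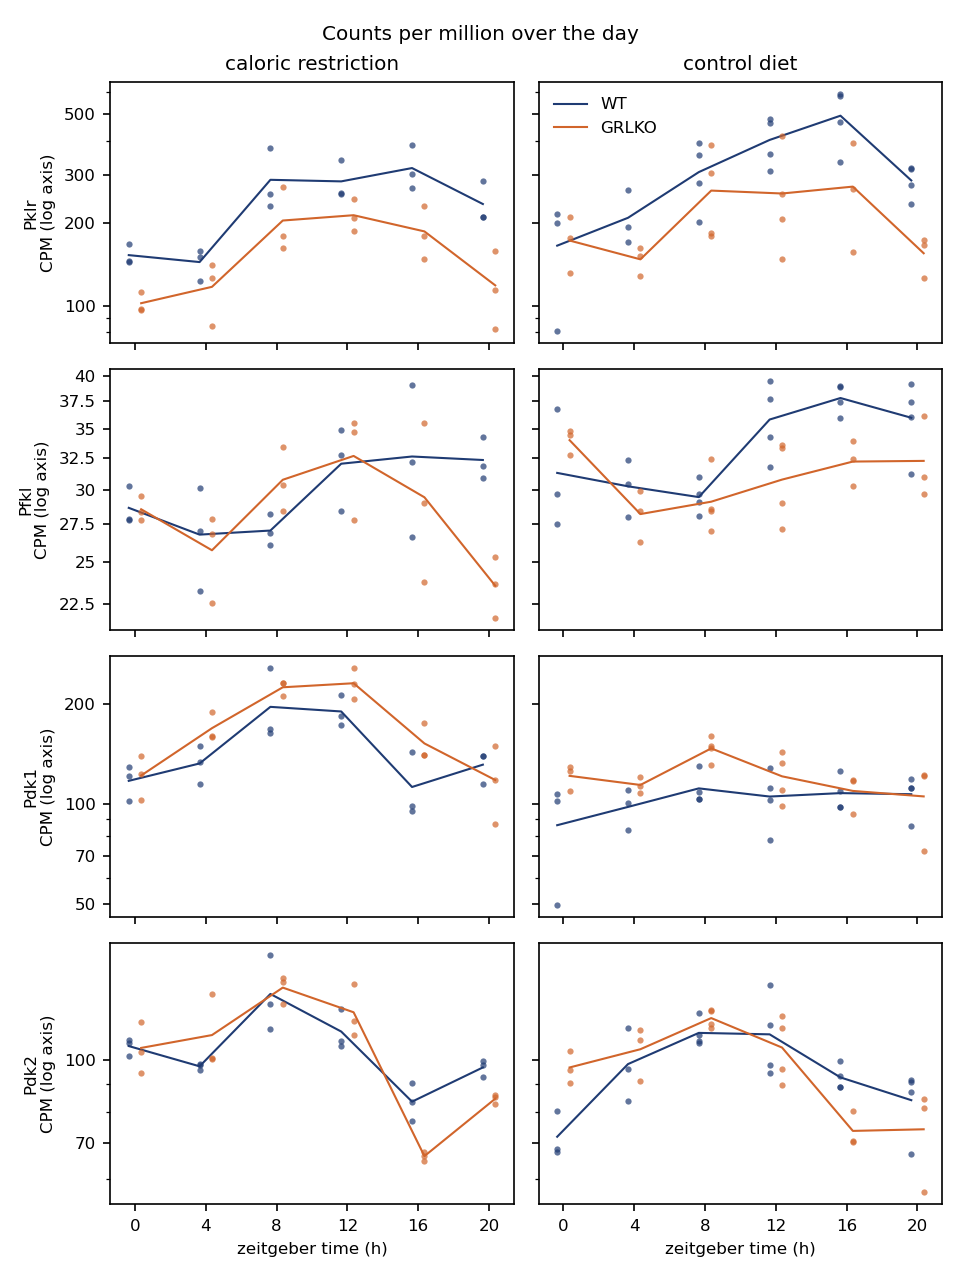
Level of Pklr, Pfkl, Pdk1 and Pdk2 over the day in WT and GRLKO livers on caloric restriction and control diet. Each point is 1 library, lines join group means and the vertical axis is logarithmic.

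Gckr was barely seen in these count tables. Its estimate was exactly 0 in 37 of 90 libraries, and in the other 53 it was never under 11.3 counts (median 30.9, highest 140.5), with no library between 0 and 11.3 counts. The highest level was 7.73 CPM. It passed the count filter in 15 of 18 comparisons and was called in none by edgeR with all libraries and the count filter. At ZT20 on control diet it was above 0 in all 4 WT livers, with 4.66 CPM at most, and measured 0, 0 and 0 CPM in GRLKO livers, all 3 below the WT livers (edgeR, adjusted p = 0.0585, no fold change given against a group at 0, and a call by edgeR without the low-count filter at 0.0443). On CR at ZT16 it went the other way, with 0, 0 and 0.704 CPM in WT and 5.08, 4.52 and 1.44 CPM in GRLKO livers, 3 of 3 higher (log2 fold change 3.91 ± 1.02, edgeR, adjusted p = 0.0798, and 0.0357 without WT replicate 3). How the quantification divides reads of this gene among transcripts was not tested.

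Over the 24 groups of the time series, the mean log2 CPM of Pfkfb2 and Pfkfb3, centred within each diet, had a Pearson correlation of 0.78, and that of Pfkfb3 and Pdk4 was -0.67 (n = 24 groups, which share diet, genotype and time of day). Pdk1 and Pdk2 had 0.63, and Pklr and Pfkfb3 0.68. Among 8838 expressed genes, the closest to Pfkfb2 were Pptc7 (0.95), Yod1 (0.89) and Arhgef26 (0.89), the closest to Pfkfb3 Adarb1, Arhgef26 and Yrdc (0.90 each), and the closest to Pdk4 Ypel2 (0.94). Pdk1 was closest to Ppara (0.91) and Pklr to Slc37a4 (0.93), the transporter gene that brings glucose 6-phosphate into the endoplasmic reticulum. These are descriptions of shared time courses, and were not computed without the libraries with pancreas or muscle markers.

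Some members share their locus with other genes, and whether counting used the strand is not stated. The methods name guides of a stranded kit and of TruSeq, the labels TruSeq alone. On GRCm38, Pfkfb2 spans chr1:130689182-130729253 on the minus strand, with Yod1 inside it on the opposite strand. Yod1 was called by edgeR in the direction of Pfkfb2 with diet (1.46), genotype on CR at ZT12 (-1.47), corticosterone (1.75) and in the steps on CR (-1.39) and control diet (-0.87). Their calls parted elsewhere: Yod1 was not called on CR at ZT8 (-0.88) or ZT16 (-0.28), where Pfkfb2 was, and was called on control diet at ZT12 (-0.90), where Pfkfb2 was not. At ZT8 on CR the log2 fold change of Yod1 was larger in size than that of Pfkfb2. On control diet at ZT12 both genes were lower in GRLKO, so at these times the calls parted by threshold only. A difference between the genes was not tested. The span of Pfkfb2 also holds Gm29427 and Gm37163 on its own strand, that of Pfkfb3 Gm37975 on its own and Gm10851 on the opposite strand, and that of Pdk2 Gm11513 on the opposite strand. Pfkfb1, at chrX:150588229-150643878 on the plus strand, overlaps Apex2 on the other strand, which fell by 1.03 in GRLKO on CR at ZT12 and, where Pfkfb1 was not called, by 0.49 with diet and by 0.64 on control diet at ZT12. Pklr, at chr3:89136142-89146784 on the plus strand, overlaps Hcn3, which fell by 0.95 with diet. Whether reads of one gene of a pair were counted for the other was not tested.

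Promoter sequences are given for Pfkfb2 and Pfkfb3, the members called with diet, with genotype on CR and with corticosterone at ZT12, because they hold a short motif of interest: the E-box CACGTG, bound by clock and MLX-family factors, or the half-site AGAACA of the glucocorticoid receptor. Among 18 promoters of the 9 members (300 bases each, 250 before and 50 after the start, GRCm38.p6, both strands searched), CACGTG was found in 3 (Pfkfb2, Pfkfb3 and Pdk2, 7.15% of all 32851 promoters), AGAACA in 3 (Gckr, Pfkfb2 and Pdk1, 19.0% of all) and the forkhead motif GTAAACA in 0 (3.65% of all). Of 3 Pfkfb2 promoters, 1 holds the E-box and another the half-site, and of 2 Pfkfb3 promoters 1 holds the E-box. The remaining promoter of each gene holds none of these motifs and is not shown. The motif found is in capitals, and its presence is a description of the sequence only.
Pfkfb2 chr1:130715772-130716071 (minus strand): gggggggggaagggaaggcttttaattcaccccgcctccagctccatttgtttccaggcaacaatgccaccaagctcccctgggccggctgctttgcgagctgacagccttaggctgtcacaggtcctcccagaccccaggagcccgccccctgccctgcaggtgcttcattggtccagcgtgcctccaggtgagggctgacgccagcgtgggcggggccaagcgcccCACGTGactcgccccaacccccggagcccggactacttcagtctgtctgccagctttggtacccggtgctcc
Pfkfb2 chr1:130714527-130714826 (minus strand): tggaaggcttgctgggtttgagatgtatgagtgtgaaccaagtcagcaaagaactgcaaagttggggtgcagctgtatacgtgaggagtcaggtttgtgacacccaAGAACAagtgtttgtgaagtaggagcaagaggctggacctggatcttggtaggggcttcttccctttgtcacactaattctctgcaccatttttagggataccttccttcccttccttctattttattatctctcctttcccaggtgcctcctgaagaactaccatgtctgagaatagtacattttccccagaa
Pfkfb3 chr2:11502041-11502340 (minus strand): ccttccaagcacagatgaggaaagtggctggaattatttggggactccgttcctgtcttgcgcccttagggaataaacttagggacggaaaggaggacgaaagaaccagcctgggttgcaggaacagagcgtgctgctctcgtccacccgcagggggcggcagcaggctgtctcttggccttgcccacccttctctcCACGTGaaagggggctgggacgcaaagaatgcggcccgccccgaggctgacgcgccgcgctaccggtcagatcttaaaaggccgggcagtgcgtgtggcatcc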

How the data were processed

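Bulk liver RNA-seq of 90 libraries was re-analysed from 4 tables of estimated counts per gene. The authors checked 100 bp reads with FastQC 0.11.9, quantified transcripts with Salmon 1.8.0, summed them to genes with tximport 1.18.0 and deposited the estimated counts, which are not normalized. The build is given as mm10, and the transcript annotation is not stated. Of 27654 gene IDs, 27244 were matched to a symbol, and the other 410 hold 0.107% of the counts. A deposited table of VST values (6 columns) was not used here, since the tests need counts. The 9 members and the lists (20 glycolysis genes, 11 around pyruvate dehydrogenase, 7 regulators) were chosen with earlier results of these data known. A single result, for a gene of the lists in a genotype comparison, is not reported here.

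Counts were rounded and tested in R 4.3.3 with edgeR 4.0.16 (TMM, filterByExpr at a minimum count of 10, quasi-likelihood F test), each comparison on its own libraries, with Benjamini-Hochberg adjustment over all tested genes and calls under 0.05. Levels are CPM after TMM within each table, so ranges and medians over all libraries, given for markers and Gckr, are descriptions without a common scaling. Log2 CPM used a prior count of 2, and the error of a log2 fold change is its standard error from the F statistic. Rhythms were tested with JTK_CYCLE (exact null, period 24 h, Bonferroni over 6 phase offsets) on VST values from DESeq2 1.42.0, and the code was tested on simulated data. In the time series each diet is its own batch of libraries, so diet and batch cannot be told apart there. Within groups, 102 comparisons of library with library found no duplicate (chi-square over its degrees of freedom at least 10.4). Alternatives were DESeq2, RLE size factors, no low-count filter, an amplitude limit for rhythms, a replicate block, a fit over all libraries of a diet, an edgeR harmonic test, time-series libraries for the diet contrast, each library or replicate number left out and, added after seeing the data, the libraries with pancreas or muscle markers left out. In the smallest library, of 10057544 counts, 1 CPM is about 10 counts. Promoters and coordinates are those of RefSeq and GENCODE vM21 on GRCm38. Other assays of the study were not analysed here.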

Additional observations from a re-analysis of the deposited data

Results flagged for a closer look

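In the groups of 4 livers, a library was set apart where the gap to its nearest neighbour took up most of the range of its group, beyond the Dixon critical value for 4 samples. This picks about 1 in 20 groups by chance and picked 7 of 54 pairs of gene and group here. That rate does not hold for Gckr where all other libraries of a group are at 0, since the gap is then the whole range. Groups of 3 livers were not screened this way, among them the Pdk4 values of 45.0, 62.8 and 262 CPM on CR in the diet comparison. The gap was the whole range (1) for Gckr in GRLKO on control diet at ZT8 replicate 2 (5.15 CPM, next 0) and at ZT12 replicate 3 (3.27 CPM, next 0). It was 0.842 of the range for Gckr in WT on control diet at ZT16 replicate 4 (7.73 CPM, next 1.22). For Pfkfb2 it was 0.945 in WT on control diet at ZT12 replicate 2 (17.9 CPM, next 13.8), and for Pfkfb3 0.853 in WT on control diet at ZT16 replicate 3 (40.8 CPM, next 11.9). For Pdk4 it was 0.877 in WT on control diet at ZT12 replicate 1 (4.88 CPM, next 1.65) and 0.840 in GRLKO on control diet at ZT12 replicate 3 (7.97 CPM, next 3.12). The step from ZT12 to ZT16 differed between the diets for Pdk1 (-0.80) and Pdk4 (-3.00), each called by edgeR as a difference between groups, and a part of library batch in them was not tested.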

How the results depend on the processing

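Of 195 single values tested, 49 were called, and 19 of these kept their call under every alternative (38 under the settings, 21 under the leave-outs). Of 1959 alternative values, 1816 stayed alike, 99 were weaker (a call lost), 42 stronger (a call gained) and 2 reversed. Those alike include values without a call in either case. Among the 428 alternative values of called results, 327 stayed alike. More calls ended under the leave-outs, which have fewer samples, than under the settings. Every leave-out kept the diet calls of Pdk4, Pfkfb2, Pfkfb3, Pdk1 and Pfkl, and those of Pfkfb1 (-1.79 to -1.55), Pfkfb2 (-1.84 to -1.52) and Pfkfb3 (-3.52 to -2.93) on CR at ZT12. Where no other statement is made, the cause was not tested. Gckr was at 0 in 37 libraries, and whether depth plays a part in that was not tested.

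With time-series libraries the diet effect called 4 members in place of 7, and Pfkl reversed from 0.46 to -0.18; the genes called were 4398 in place of 6155. The same time-series contrast without its pancreas-marked library (added after seeing the data) called 3265 genes and 3 members, against 4398 and 4 with it, and gave Pfkl at -0.20; the cause was not tested.

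DESeq2 called more genes in the genotype comparisons. On CR it called 434 in place of 61 at ZT0, 440 in place of 83 at ZT4, 697 in place of 308 at ZT8, 917 in place of 541 at ZT16 and 686 in place of 178 at ZT20. On control diet it called 407 in place of 63 at ZT0, 195 in place of 23 at ZT4, 369 in place of 166 at ZT8, 569 in place of 238 at ZT12, 634 in place of 232 at ZT16 and 297 in place of 50 at ZT20. The interaction went from 123 to 473 genes and from 0 to 1 member. Members on CR went from 0 to 1 at ZT0 and at ZT4, 2 to 3 at ZT8, 3 to 4 at ZT12, 1 to 3 at ZT16 and 1 to 4 at ZT20, and in the difference of steps from 2 to 3. On control diet they went from 1 to 2 at ZT0 and at ZT12, 0 to 1 at ZT8 and at ZT16 and 0 to 3 at ZT20.

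Equal replicate numbers do not mark pairs: over 51 pairs in 16 comparisons the correlations ran from -0.14 to 0.19, and no pairing was used. With a replicate block, genes called on CR were 9 at ZT0, 13 at ZT4, 151 at ZT8, 889 at ZT12 (1795 without the block), 287 at ZT16 and 76 at ZT20, and on control diet 9 at ZT0, 1 at ZT4, 36 at ZT8, 101 at ZT12, 32 at ZT16 and 3 at ZT20. The block gave 534 genes in place of 935 for corticosterone, 5 in place of 123 for the interaction, 998 in place of 1540 for the step on control diet and 1194 in place of 1814 for the difference of steps. Members under the block were 1 in place of 2 on CR at ZT8, 2 in place of 1 at ZT16, 0 in place of 1 at ZT20, and 0 in place of 1 on control diet at ZT0 and at ZT12. With the block Pklr lost its diet call (-0.76; edgeR, adjusted p = 0.0578).

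One fit over all libraries of a diet called 169 genes on CR at ZT0, 358 at ZT4, 724 at ZT8, 2805 at ZT12, 1025 at ZT16 and 1127 at ZT20, and on control diet 630 at ZT0, 48 at ZT4, 36 at ZT8, 537 at ZT12, 469 at ZT16 and 387 at ZT20. In that fit members went from 0 to 1 on CR at ZT4, 1 to 3 at ZT16 and 1 to 4 at ZT20, and on control diet from 1 to 0 at ZT0 and 1 to 2 at ZT12. Without the libraries with pancreas or muscle markers (added after seeing the data), genes called were 538 in place of 1795 on CR at ZT12, 93 in place of 232 on control diet at ZT16, 52 in place of 123 for the interaction and 1102 in place of 1814 for the difference of steps, which kept 1 member of 2. Without the low-count filter, members went from 0 to 1 on control diet at ZT20 and from 2 to 1 in the difference of steps. The edgeR harmonic test called 8 members in place of 4 in WT on CR, and added Pfkfb2 in WT and Pklr in GRLKO on control diet.

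With 1 library left out at a time, genes called on CR ran from 1 to 103 at ZT0, 13 to 127 at ZT4, 56 to 315 at ZT8, 899 to 1329 at ZT12, 234 to 346 at ZT16 and 16 to 194 at ZT20. On control diet they ran from 3 to 81 at ZT0, 1 to 13 at ZT4, 56 to 160 at ZT8, 137 to 199 at ZT12, 84 to 183 at ZT16 and 12 to 48 at ZT20, and for corticosterone from 206 to 1008. Members called then ran from 0 to 2 on CR at ZT8, 1 to 2 at ZT16 and 0 to 1 at ZT20, from 0 to 1 on control diet at ZT0, ZT8, ZT12 and ZT16, and from 0 to 4 for corticosterone. With 1 replicate number left out, genes ran from 2 to 79 for the interaction, 2260 to 3378 for the step on CR, 520 to 875 for the step on control diet and 426 to 1420 for the difference of steps, with 0 to 2 members for the step on control diet and 1 to 2 for the difference. Rhythmic genes ran from 1653 to 1896 in WT on CR (5181 with all), 979 to 1720 in GRLKO on CR (4831), 3665 to 4829 in WT on control diet (6095) and 2075 to 4760 in GRLKO on control diet (5293), with 1 to 2, 1 to 3, 5 to 6 and 2 to 3 members.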
